A study of Mus musculus with 9 samples.

Results

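The genes of the cytosolic ribosomal proteins were followed through poly(A) RNA-seq of 3 striatal cell lines. They were taken from the table of gene counts by symbol, as every row named Rpl or Rps followed by a digit together with Rpsa, Rplp0, Rplp1, Rplp2 and Fau, without pseudogene symbols and without the S6 kinases. This gave 90 of the 36410 rows. Of these, 78 are core ribosomal proteins, 46 of the large (60S) and 32 of the small (40S) subunit. Another 11 are paralogs or retrocopies, and 1, Rps19bp1, encodes a protein that binds RPS19 and is not part of the ribosome. The control line was STHdhQ7/Q7, with 7 glutamine codons in exon 1 of both Htt alleles. The HD-het line was STHdhQ7/Q111, in which 1 allele is a knock-in with 111 glutamine codons, and the HD-homo line was STHdhQ111/Q111. All 3 are immortalized lines from striatal cells of mouse embryos, with the strain given as C57/BL6. Each line gave 3 libraries. The labels do not say whether these came from separate cultures, so that p-values measure the spread between libraries, which may be technical. Each genotype is 1 line, and genotype and line cannot be told apart.

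A eukaryotic ribosome carries one copy of nearly every ribosomal protein, and the large subunit joins amino acids while the small subunit reads the mRNA. Genes of both subunits are usually expressed together and at high level in growing cells. Their mRNAs begin with a short run of pyrimidines led by a C, the 5′ terminal oligopyrimidine (TOP) motif, through which LARP1 and mTORC1 set how well they are translated. The genome also holds many processed copies of these mRNAs, most of them silent, whose sequence is close enough to that of the parent to share reads.

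The libraries held 29507665 to 41197931 counts, and levels are given as CPM, counts divided by the library total and scaled to the same total in every library. Of 13508 genes with enough counts to be tested, 88 were ribosomal protein rows. Rps4l had no count in any library, and Rpl39l had 2 counts or fewer in each. Htt was at 93.3 to 103.3 CPM in control, 60.1 to 64.0 CPM in HD-het and 19.2 to 22.2 CPM in HD-homo libraries, with no overlap, a log2 fold change of -0.68 in HD-het and -2.31 in HD-homo cells (adjusted p = 4.4e-06 and 3.4e-10). The table does not tell the alleles apart. Of the marker genes, Drd1 of medium spiny neurons, Mog of oligodendrocytes and Aif1 of microglia were at 0 in every library, and the 13 medium spiny neuron markers, mostly Foxp1, summed to 92 to 103 CPM in control, 119 to 120 CPM in HD-het and 168 to 185 CPM in HD-homo libraries. This sum follows Foxp1 and not the list. Of its 6 tested genes, 3 were higher in HD-het cells and 2, Penk and Rgs9, were lower (log2 fold changes -1.44 and -2.16). In HD-homo cells 2, Foxp1 and Penk, were higher (0.84 and 0.90) and 0 were lower. The summed level of the 6 mesenchymal markers, among them Col1a1, ran from 4860 to 6110 CPM in control, from 14400 to 16300 CPM in HD-het and from 6390 to 6810 CPM in HD-homo libraries. Its members did not move together, with 5 higher and 1, Col1a2, lower in HD-het cells (log2 fold change -4.54), and with 3 higher and 2 lower in HD-homo cells, where Acta2 went from a mean of 2270 to 92.5 CPM and Col1a2 from 73.4 to 1508 CPM. The 4 neural progenitor markers, mostly Vim, summed to between 4190 and 6370 CPM over all libraries. Within the list Sox2 stood at 121 to 141 CPM in control, 77.85 to 84.4 CPM in HD-het and 4.97 to 5.83 CPM in HD-homo libraries. Against control, Nes and Pax6 were higher in HD-het cells (log2 fold changes 0.67 and 0.59), while Sox2 and Vim were lower (-0.63 and -0.24). All 4 were lower in HD-homo cells, with Nes at -4.21, Pax6 at -7.91 and Vim at -0.34. The part of these differences between the lines in the results below was not tested.

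Ribosomal protein mRNAs took up a smaller share of the library in HD-het cells than in the other lines. The 90 rows held 3.67%, 3.698% and 4.198% of all counts in control, 2.58%, 2.404% and 2.78% in HD-het, and 4.17%, 3.77% and 3.97% in HD-homo libraries. The HD-het libraries all lay below the other 6, while control and HD-homo libraries overlapped. As mean ± SD over 3 libraries, the share was 3.85% ± 0.298 in control, 2.58% ± 0.186 in HD-het and 3.97% ± 0.203 in HD-homo cells. A lower share in a bulk sample cannot tell fewer expressing cells, less RNA per cell and more RNA of other genes apart. The 60S genes held 1.34 times the counts of the 40S genes in control cells (range 1.337 to 1.345), 1.375 ± 0.00503 times in HD-het cells and 1.49 ± 0.00624 times in HD-homo cells (range 1.483 to 1.495). These ranges did not overlap between any of the lines.

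**Figure D1:**
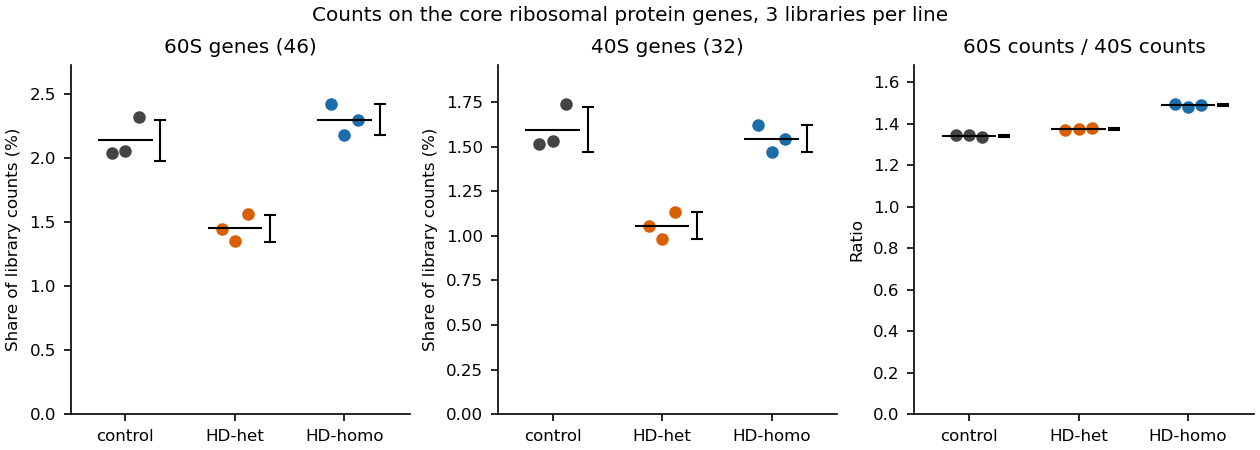
Share of library counts (percent) on the 46 core 60S genes (left) and the 32 core 40S genes (middle), and the ratio of the 2 sums (right), with 1 point per library, a line at the mean and a bar for the SD (n = 3). The HD-het libraries hold the lowest shares, and the ratio is highest in the HD-homo libraries, at 1.483 to 1.495.

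In HD-het against control cells, 85 of the 88 tested rows were lower and 0 were higher at an adjusted p under 0.05 in the quasi-likelihood test of edgeR, with p-values adjusted over all genes after Benjamini and Hochberg. Among all genes tested, 65.1% were called, 31.4% lower and 33.8% higher. The median log2 fold change of the 88 rows was -0.49, against 0.03 over all genes. The decrease took in 45 of 46 core 60S genes and 31 of 32 core 40S genes, with medians of -0.49 and -0.50. The HD-het libraries lay wholly below the control libraries for 86 of the 88 rows. The share of all genes tested that lay apart in this way was not counted. The 3 rows that did not pass were Rpl37a (log2 fold change -0.16, adjusted p = 0.0987), Rps14 (-0.12, adjusted p = 0.21) and the muscle paralog Rpl3l, which had under 0.5 CPM in every library. The count of lower rows stayed between 78 and 86 when any 1 library was left out.

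**Figure D2:**
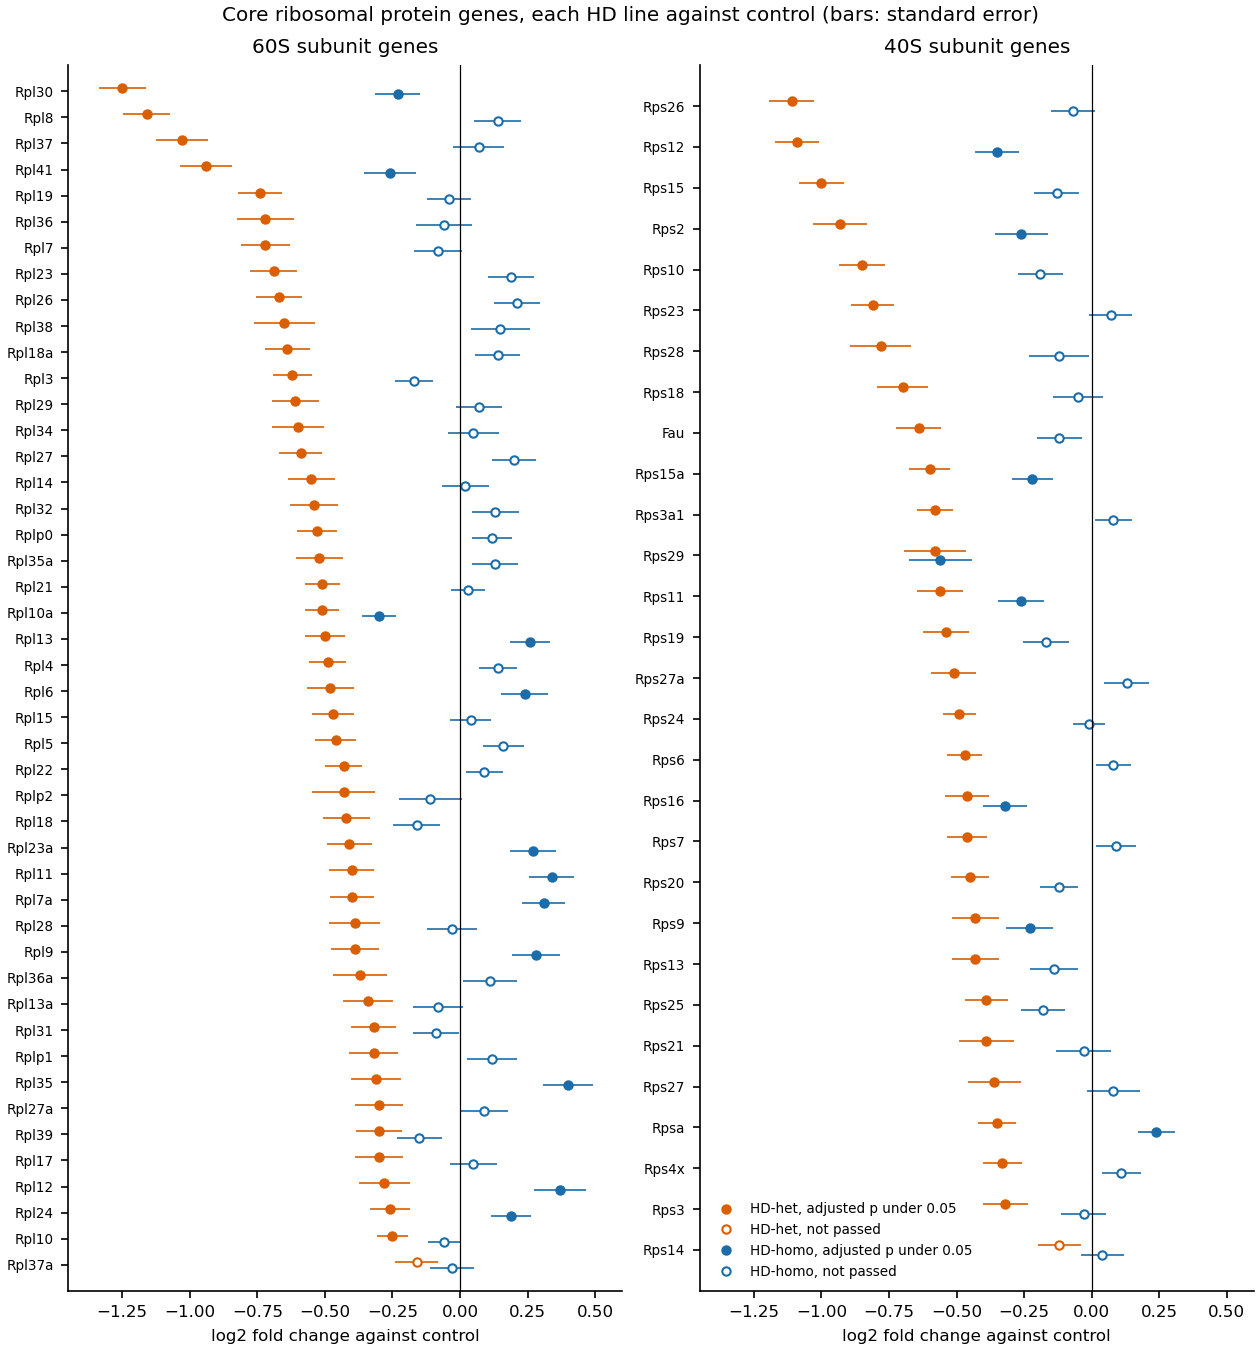
Log2 fold change against control of 75 of the 78 core genes in HD-het (orange) and HD-homo cells (blue), 60S genes on the left and 40S genes on the right, with bars of 1 standard error and filled points for an adjusted p under 0.05. All 75 HD-het points are negative, from -1.25 to -0.12, and the HD-homo points lie between -0.56 and 0.40.

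The largest decreases in HD-het cells were in genes of both subunits and in Rps19bp1. Rps19bp1 (chr15:80260615-80264315, GRCm38) was at 52.5, 53.5 and 55.5 CPM in control, 22.7, 20.8 and 23.2 CPM in HD-het and 54.1, 51.6 and 55.2 CPM in HD-homo libraries. The HD-het values were all below those of the other lines, and it fell by 1.26 ± 0.069 (log2, SE; adjusted p = 6.4e-08). Rpl30, a small 60S protein that also regulates its own mRNA in yeast (chr15:34440505-34443640), was at 27.6, 28.4 and 27.2 CPM in control, 11.3, 10.5 and 12.8 CPM in HD-het and 23.7, 22.9 and 25.2 CPM in HD-homo libraries. It fell by 1.25 ± 0.087 (adjusted p = 4.2e-07). Rpl8, the protein uL2 next to the peptidyl transferase centre (chr15:76904078-76906314), was at 1529, 1543 and 1750 CPM in control, 697, 659.8 and 784 CPM in HD-het and 1898, 1670 and 1795 CPM in HD-homo libraries. Its HD-het libraries stood apart from the other 6, with a decrease of 1.16 ± 0.089 (adjusted p = 8.3e-07). Rps26, a protein at the mRNA exit of the 40S subunit that is mutated in Diamond-Blackfan anemia (chr10:128624534-128626747), was at 344, 352 and 397 CPM in control, 165, 152 and 185 CPM in HD-het and 365, 344 and 345 CPM in HD-homo libraries, a decrease of 1.11 ± 0.083 (adjusted p = 6.9e-07). No other row fell as far in HD-het cells as these 4.

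**Figure D3:**
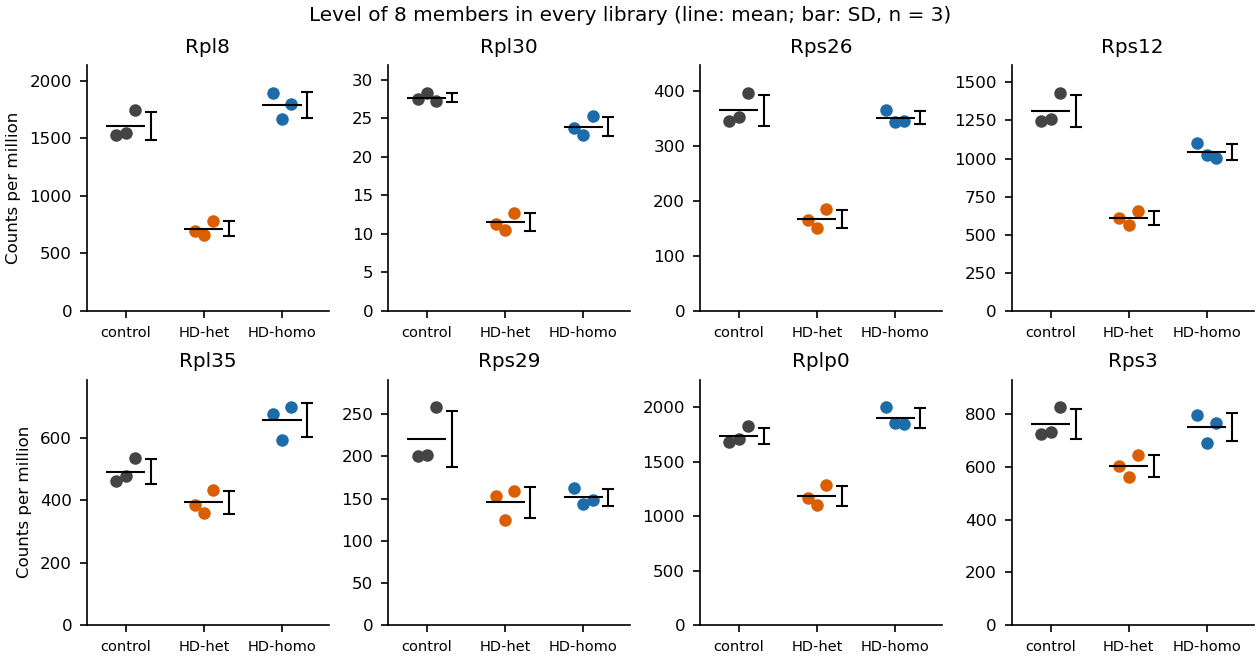
Level (CPM) of 8 members in each library, with a line at the mean and a bar for the SD (n = 3). Rpl8, Rpl30, Rps26, Rps12, Rplp0 and Rps3 are lowest in all 3 HD-het libraries, Rpl35 is highest in HD-homo cells, and Rps29 is low in both HD lines.

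Members grouped by role all moved the same way in HD-het cells. Of the P stalk that recruits elongation factors, Rplp0 was at 1683, 1703 and 1822 CPM in control, 1170, 1105 and 1285 CPM in HD-het and 2002, 1857 and 1841 CPM in HD-homo libraries. It fell by 0.53 ± 0.074 in HD-het cells, beside 0.32 ± 0.092 for Rplp1 and 0.43 ± 0.12 for Rplp2 (adjusted p = 7.3e-05, 0.0098 and 0.00741). Rpl5 and Rpl11, which with 5S rRNA form the particle that can bind Mdm2, fell by 0.46 ± 0.075 and 0.40 ± 0.083. Rps6, the substrate of S6 kinase, was at 443, 443 and 487 CPM in control and 324, 310.0 and 345 CPM in HD-het libraries, with no overlap, and fell by 0.47 ± 0.065 (adjusted p = 7.0e-05). The ubiquitin fusion Rps27a and the ubiquitin-like fusion Fau fell by 0.51 ± 0.083 and 0.64 ± 0.084. Among proteins that line the mRNA channel and decoding site, Rps2 fell by 0.93 ± 0.10, Rps15 by 1.00 ± 0.084 and Rps3 by 0.32 ± 0.083. Rpsa, the laminin receptor, fell by 0.35 ± 0.070.

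Genes whose loss on 1 allele causes Diamond-Blackfan anemia were also lower in HD-het cells. Rps19, the gene most often affected, was at 329.6, 329.9 and 379.9 CPM in control and 236, 215 and 254 CPM in HD-het libraries and fell by 0.54 ± 0.085 (adjusted p = 1.8e-04). Rps24 fell by 0.49 ± 0.060 and Rpl35a by 0.52 ± 0.086. The 4 X-linked members Rps4x, Rpl10, Rpl39 and Rpl36a fell by 0.33 ± 0.073, 0.25 ± 0.059, 0.30 ± 0.085 and 0.37 ± 0.10. Of members studied for translation of particular mRNAs, Rpl38 fell by 0.65 ± 0.11, Rpl10a by 0.51 ± 0.064, Rps25 by 0.39 ± 0.081 and Rpl13a by 0.34 ± 0.093. The adjusted p of these 8 members ran up to 0.00929.

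The size of the decrease went with the chromosome of the gene. This comparison was chosen after the values were seen. Of the 8 largest decreases in HD-het cells, 7 lie on chromosomes 15 (Rps19bp1, Rpl30, Rpl8 and Rpl37) or 10 (Rps26, Rps12 and Rps15), and the remaining row is Rpl37rt on chromosome 5, a retrocopy of Rpl37. The other genes of these chromosomes were lower as well: the 539 other genes tested on chromosome 15 had a median log2 fold change of -0.54, with 68.6% lower at an adjusted p under 0.05, and the 622 on chromosome 10 had a median of -0.31, with 51.9% lower. On chromosome 2 the median of the 1028 other genes was 0.24, and the 4 members there had a median of -0.35. Across the 78 core genes, the fold change of the member and the median of the other genes on its chromosome had a Pearson correlation of 0.81 (Spearman 0.73), given as a description since members of 1 chromosome share that median and all come from the same libraries. Measured against the median of its own chromosome, every one of the 78 core genes was still below 0 in HD-het cells, between -0.89 and -0.08 with a median of -0.56, and their SD narrowed from 0.23 to 0.14. The 8 core genes on chromosomes 10 and 15 had a median of -1.06, and of the 70 on other chromosomes, with a median of -0.47, 68 were lower by the test. The number of copies of each chromosome in the 3 lines was not measured here, and its part in these values was not tested.

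**Figure D4:**
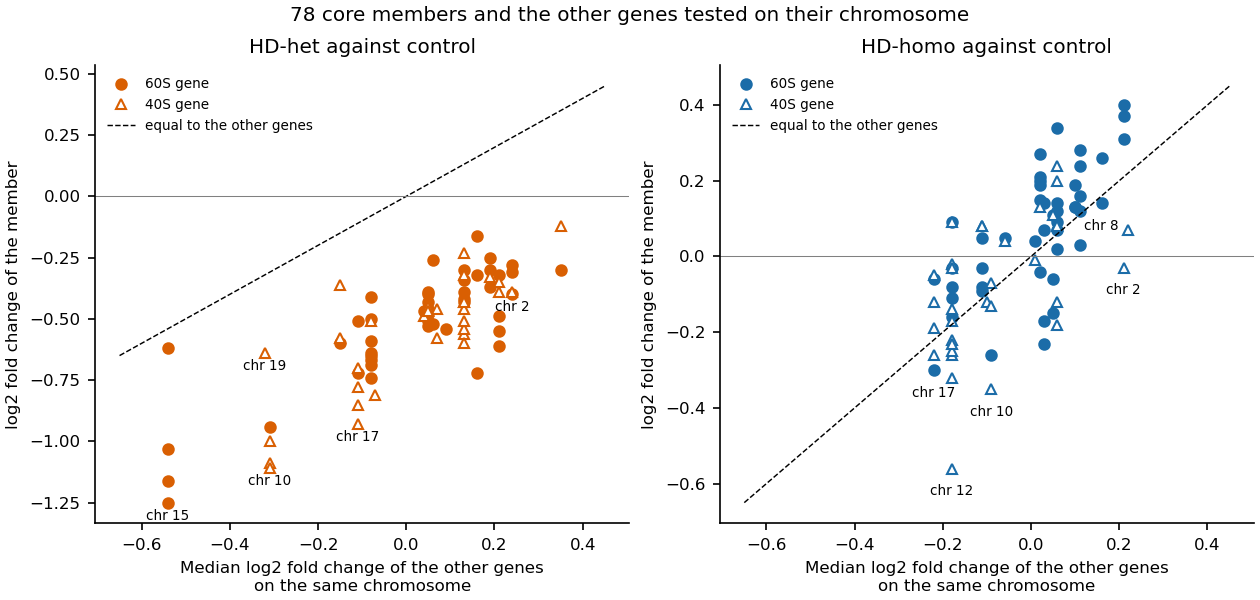
Log2 fold change of each of the 78 core genes (vertical) against the median log2 fold change of the other genes tested on its chromosome (horizontal), for HD-het (left) and HD-homo cells (right) against control, with filled circles for 60S genes, open triangles for 40S genes and a dashed line where both are equal. All HD-het points lie below the line, with most of those on chromosomes 15 and 10 lowest, while the HD-homo points scatter around it.

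In HD-homo against control cells the members were close to control levels. Of the 88 rows, 10 were higher and 13 lower, 26.1% called in all, while 29.6% of all genes tested were higher, 28.9% lower and 58.6% called. The HD-homo libraries lay wholly above control for 15 rows and wholly below for 17, and overlapped for 56, again without a count over all genes. The median was 0.03, against 0.01 over all genes. The calls split by subunit, with 9 of 46 core 60S genes higher and 3 lower (median 0.09), and 1 of 32 core 40S genes higher and 8 lower (median -0.09). These counts moved with single libraries. Without control replicate 1 there were 5 higher and 7 lower, without control replicate 2 there were 5 and 8, and without control replicate 3 there were 16 and 5. Without HD-homo replicate 1 there were 6 and 14, and without HD-homo replicate 2 there were 16 and 4.

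The largest increases in HD-homo cells were in 60S genes. Rpl35, which lies at the exit of the peptide tunnel (chr2:39001580-39005624), was at 462, 478 and 537 CPM in control, 386, 361 and 434 CPM in HD-het and 678, 594 and 699.9 CPM in HD-homo libraries. The HD-homo values were above all others, and it rose by 0.40 ± 0.093 (adjusted p = 0.00323). Rpl12, a protein at the base of the stalk (chr2:32961559-32965345), rose by 0.37 ± 0.095 from 485, 495 and 531 CPM in control to 705, 591 and 671 CPM in HD-homo libraries. Rpl11 (chr4:136028265-136053428) rose by 0.34 ± 0.083 and Rpl7a (chr2:26910764-26913318) by 0.31 ± 0.080 (adjusted p = 0.00637, 0.0045 and 0.00577). Rpsa was the 1 core 40S gene that was higher, at 1430, 1444 and 1574 CPM in control and 1818, 1714 and 1773 CPM in HD-homo libraries, with no overlap (0.24 ± 0.070, adjusted p = 0.0118). Its call was lost without control replicate 1 (adjusted p = 0.055) or 2 (0.051).

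The largest decrease in HD-homo cells was in Rps29, a zinc-binding 40S protein (chr12:69157722-69159186). It was at 201, 202 and 259 CPM in control, 153, 125 and 159 CPM in HD-het and 163, 143 and 148 CPM in HD-homo libraries. Both HD lines lay below control and overlapped with each other, and the decrease was 0.58 ± 0.12 in HD-het and 0.56 ± 0.12 in HD-homo cells (adjusted p = 0.00104 and 0.00167). Rps12, a 40S protein at the subunit's beak (chr10:23785183-23787275), was at 1244, 1259 and 1433 CPM in control, 610.4, 565 and 658 CPM in HD-het and 1103, 1020 and 1006 CPM in HD-homo libraries. The lines did not overlap, and Rps12 fell by 1.09 ± 0.081 in HD-het and by 0.35 ± 0.080 in HD-homo cells (adjusted p = 6.6e-07 and 0.00326). Rps16 (chr7:28350652-28353155) fell by 0.32 ± 0.081 and Rpl10a (chr17:28328471-28331033) by 0.30 ± 0.064 in HD-homo cells (adjusted p = 0.00523 and 0.00195). Rps2 fell by 0.26 ± 0.099 (adjusted p = 0.0423), but its adjusted p was between 0.056 and 0.15 in each of 5 fits that left out control replicate 1, 2 or 3, HD-het replicate 1 or HD-homo replicate 2. Rpl30 fell by 0.23 ± 0.084 (adjusted p = 0.037), a call lost in 6 such fits (adjusted p 0.052 to 0.11), those without control replicate 1, 2 or 3, HD-het replicate 1 or HD-homo replicate 1 or 2.

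Position went with direction in HD-homo cells too. All 10 members that were higher lie on chromosomes whose other genes had a median above 0 against control, and 12 of the 13 that were lower lie on chromosomes with a median below 0, the exception being Rpl30. Of the 88 tested members, 47 lie on chromosomes of the first kind and 41 on those of the second. Rpl35, Rpl12 and Rpl7a are on chromosome 2, where the other genes had a median of 0.21 and 48.3% of them were higher. Rps29 is on chromosome 12 (median -0.18, 44% lower) and Rps16 on chromosome 7 (median -0.18, 41.9% lower), and Rpl10a and Rps2 are on chromosome 17 (median -0.22, 46.2% lower). The Pearson correlation over the 78 core genes was 0.68 (Spearman 0.67), again as a description. Chromosome 7 holds 9 core 40S genes and 5 core 60S genes, and in all 22 of 32 core 40S genes and 13 of 46 core 60S genes lie on chromosomes with a median below 0. Against the median of their own chromosome, the 60S genes had a median of 0.07 and the 40S genes of 0.02, in place of 0.09 and -0.09. On this measure 36 of the 60S genes were above 0 and 10 below, beside 17 and 15 of the 40S genes. Rps29 was the lowest of the core genes, at -0.37.

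Between the HD lines, 81 of the 88 rows were higher in HD-homo cells and 1 was lower, beside 36.0% and 35.6% of all genes tested, 71.6% in all. This comparison uses the same libraries as the other 2. The median log2 difference was 0.56, against 0.00 over all genes, with 0.65 for core 60S and 0.46 for core 40S genes. The largest differences were in Rpl8, 2.45-fold higher in HD-homo cells (adjusted p = 1.8e-07), Rps19bp1 (2.36-fold), Rpl37rt (2.16-fold) and Rpl37 (2.14-fold), whose adjusted p were 3.2e-08, 3.9e-06 and 1.3e-06. The 6 rows that did not pass were Rps29 (0.02), Rpl37a (0.13), Rps14 (0.15), Rps16 (0.14), Rpl39 (0.14) and Rps9 (0.21, adjusted p = 0.0502). Rps16 was lower than control in both HD lines (adjusted p = 4.3e-04 and 0.00523). The 1 lower row was Rpl3l, at 0.417, 0.427 and 0.471 CPM in HD-het and 0.309, 0.194 and 0.238 CPM in HD-homo libraries, and DESeq2 did not call it (adjusted p = 0.14). In the order of line means, HD-het was lowest for all 78 core genes, with control above HD-homo for 36 and below it for 42. For 54 core genes the pattern of calls was lower in HD-het, not passed in HD-homo against control, and higher in HD-homo when the HD lines were compared. The share of all genes tested with this order of means or this pattern was not counted. A gene that did not pass is not thereby shown to equal control.

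The letters at the start of transcription were read for the 69 of 90 members found in a table of RefSeq starts (GRCm38.p6), and windows of 10 bases before to 20 bases from the start are printed, with capitals for a run of C or T letters that opens with C, is at least 5 long and begins within 3 bases of the start. The first 4 hold such a run, and the last 2, from genes with large decreases in HD-het cells, do not. Both of these windows do hold a run of C and T letters led by C, but it begins more than 3 bases after the start.
Fau (chr19:6057937-6057966, plus strand): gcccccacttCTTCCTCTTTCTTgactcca
Rpl35 (chr2:39005112-39005141, minus strand): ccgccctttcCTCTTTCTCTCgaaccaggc
Rps6 (chr4:86857348-86857377, minus strand): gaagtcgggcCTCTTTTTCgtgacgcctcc
Rpl38 (chr11:114668570-114668599, plus strand): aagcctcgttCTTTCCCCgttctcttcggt
Rps12 (chr10:23787190-23787219, minus strand): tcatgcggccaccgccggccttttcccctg
Rps26 (chr10:128626487-128626516, minus strand): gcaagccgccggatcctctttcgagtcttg
Such a run was found on the gene's strand in 28 of the 69 members (40.6%), and in 24 of 58 core members (41.4%), against 13.5% of all 27025 genes of the table. The annotated start may differ from the start used in these cells by a few bases, and a window without the run says only that no such run begins there. The 28 tested members with the run had a median log2 fold change of -0.45 in HD-het and 0.03 in HD-homo against control, and the 40 tested members without it had medians of -0.48 and 0.00. All 28 with the run and 38 of the 40 without it were lower in HD-het cells.

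Reads shared with copies limit what the level of a single member means. The messages of the members were cut into words of 50 bases, and the median share of words also present in transcripts of other genes was 54.5%. For 52 members at least 50% of the words were shared, and for 8 under 10% were. Of the 7 tested members with under 10% shared, 6 were lower in HD-het cells, with a median of -0.45, beside 31.4% lower among all genes tested. The 7 include Rps19bp1, Rpl10l and Rpl3l, which are not core genes. Rps20, whose value is this median, was counted over a transcript of 3706 bases for 119 amino acids, and the share depends on the transcript used. Rps3, with 2.96% shared, was at 726, 732 and 829 CPM in control, 603, 562 and 646 CPM in HD-het and 797, 692 and 766 CPM in HD-homo libraries. Its HD-het libraries lay below the other 6, and it fell by 0.32 ± 0.083 in HD-het cells (adjusted p = 0.00529). Rpl8, with 7.86% shared, also fell. The 52 tested members with at least 50% shared had a median of -0.48, and the 29 with 10% to 50% had a median of -0.53.

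Some rows that share reads with a member changed as it did, and others did not. The 30 bases around the start are shown for Rps27 and its copy Rps27rt, because 98.65% of the 50-base words of Rps27 also occur in Rps27rt and the printed windows already share their downstream letters.
Rps27 (chr3:90213629-90213658, minus strand): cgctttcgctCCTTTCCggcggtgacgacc
Rps27rt (chr9:114982720-114982749, minus strand): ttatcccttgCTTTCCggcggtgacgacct
The counts of these 2 rows differed by at most 1 in every library, with 122, 125 and 155 CPM in control, 106, 93.5 and 109.7 CPM in HD-het and 149.8, 135 and 144 CPM in HD-homo libraries for Rps27, and both fell by 0.36 ± 0.098 in HD-het cells. With counts this equal, the level of neither row can be read alone. Rpl37 on chromosome 15 and Rpl37rt on chromosome 5 fell by 1.03 ± 0.096 and 1.02 ± 0.11, and Rpl37 held 60.2% to 62.0% of their joint counts in every library. The other genes of chromosome 5 had a median of 0.05, which left Rpl37rt at -1.08 from its own chromosome and made it the farthest below of all members. Rpl32 held 58.3% to 58.9% of the joint counts with Rpl32l, and the rows fell by 0.54 ± 0.088 and 0.53 ± 0.089. A split that moved little between libraries was also seen between Rplp2 and Wdr89 (49.35% to 50.01% on Rplp2), Rpl31 and Rpl31-ps12 (52.1% to 52.99%), Rpl34 and Rpl34-ps1 (54.3% to 55.1%) and Rpl10 and Gm5621 (52.4% to 52.6%). Other splits varied. Rpl21 held 74.98% to 86.6% of its joint counts with BC004004, whose log2 fold change in HD-het cells was 0.29, beside -0.51 for Rpl21. Rpl30 held 89.4% to 95.6% of its joint counts with Gm7429, whose log2 fold change was -0.94 in HD-het and -0.99 in HD-homo cells, beside -1.25 and -0.23 for Rpl30. Of the 12 pseudogene rows of the table, 10 had no counts. With the sharing rows added to the member, 3 retrocopy rows merged into their parents, and 82 of the 85 rows left were lower in HD-het cells.

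Of the 10 tested rows that are not core genes, 9 were lower in HD-het cells, beside 31.4% of all genes tested. Among the 9 are Rpl32l, Rpl37rt and Rps27rt, whose share of the joint counts with the parent moved little between libraries, so that they are not separate readings. Rpl7l1, a nucleolar relative of Rpl7, was at 193, 187 and 202 CPM in control, 108, 106 and 117 CPM in HD-het and 172, 153 and 177 CPM in HD-homo libraries and fell by 0.80 ± 0.074 in HD-het cells (adjusted p = 3.4e-06), beside 0.72 ± 0.090 for Rpl7. In HD-homo cells Rpl7l1 fell by 0.23 ± 0.073 (adjusted p = 0.0195, lost without control replicate 1 or 3 or HD-homo replicate 2, with adjusted p of 0.052, 0.068 and 0.061) while Rpl7 was at -0.08 (adjusted p = 0.458). Rpl22l1 was at 69.4, 69.6 and 83.3 CPM in control and 43.4, 41.7 and 47.7 CPM in HD-het libraries and fell by 0.73 ± 0.090, beside 0.43 ± 0.069 for Rpl22. Rpl36al fell by 0.42 ± 0.072 in HD-het and by 0.19 ± 0.072 in HD-homo cells, the second with an adjusted p of 0.0402 that rose to between 0.053 and 0.15 without control replicate 1, 2 or 3, HD-het replicate 1 or HD-homo replicate 1 or 2. Rps27l, a p53 target, fell by 0.25 ± 0.086 in HD-het cells (adjusted p = 0.0233), which was lost without control replicate 3 (0.086) or HD-het replicate 2 (0.067). Rpl10l, best known from the testis, was at 12.8, 13.3 and 14.8 CPM in control and 11.4, 10.6 and 12.3 CPM in HD-het libraries (-0.24 ± 0.091, adjusted p = 0.0388, lost without control replicate 2 or 3 or HD-het replicate 1 or 2, at 0.066 to 0.14). Rpl3 fell by 0.62 ± 0.071 in HD-het cells, while its muscle paralog Rpl3l stayed under 0.5 CPM.

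Other genes of ribosome production and TOP mRNAs were lower in HD-het cells. Rack1, a 40S scaffold, fell by 0.37 ± 0.070. Of 35 ribosome assembly factors, 33 were lower and 0 higher, with a median of -0.74, where 31.4% of all genes tested were lower, 33.8% higher and 65.1% called. Rrp12, a 40S export factor, fell by 1.19 ± 0.094, the largest decrease of the list. Eif6 (log2 fold change -0.00) and Sbds (0.07), which act on late 60S particles, did not pass. Of 15 genes of RNA polymerase I and its factors, which make rRNA, 12 were lower and 1, Ttf1, was higher. Polr1e fell by 0.79 ± 0.084 and Ttf1 rose by 0.28 ± 0.073. Of 16 elongation factor and other TOP mRNAs, 15 were lower (median -0.72), led by the poly(A)-binding protein gene Pabpc1 with 1.05 ± 0.083. These 16 were listed by name. The C-led run at the start was found in 3 of the 10 with a RefSeq start (30%), against 13.5% of all genes. Of 9 chaperones of single ribosomal proteins, 7 were lower and Bccip was higher (0.23 ± 0.080), and of 12 genes of TOP translation and p53 surveillance 7 (58.3%) were lower and 0 higher, among them Eif4ebp2 with 0.93 ± 0.063. Larp1 fell by 0.33 ± 0.071, while Mtor was at 0.08 (adjusted p = 0.173). Npm1 and Nap1l1 are in 2 of these lists. The 8 list genes on chromosome 15 had a median of -0.94.

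In HD-homo against control cells, 11 of the 35 assembly factors were higher and 2 lower, with a median of 0.10. This is 37.1% called, where 58.6% of all genes tested were called, 29.6% higher and 28.9% lower. The total of 13 fell to 7 without control replicate 1, to 8 without control replicate 2 and to 7 without HD-homo replicate 1. Las1l, a factor of rRNA processing, rose by 0.79 ± 0.10 (adjusted p = 6.2e-05), and Wdr43 fell by 0.20 ± 0.074 (adjusted p = 0.036). Rack1 did not pass, with a log2 fold change of 0.08. Of the RNA polymerase I genes 4 were higher and 1 lower, with Taf1a at 0.51 ± 0.071 and Polr1c at -0.35 ± 0.064. Of the TOP mRNAs 4 were higher and 2 lower, with Eif3e at 0.38 ± 0.067 and Hnrnpa1 at -0.30 ± 0.078. Of the chaperones 3 were higher and 4 lower, with Heatr3, which carries Rpl5, at 0.34 ± 0.091 and Pdcd2l at -0.78 ± 0.11. Of the 12 TOP translation and p53 genes 4 (33.3% called) were lower, with Mdm4 at -0.41 ± 0.090, and 0 were higher. Between the HD lines, 33 of 35 assembly factors, 14 of 15 RNA polymerase I genes and 14 of 16 TOP mRNAs were higher in HD-homo cells, beside 36.0% of all genes tested.

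**Figure D5:**
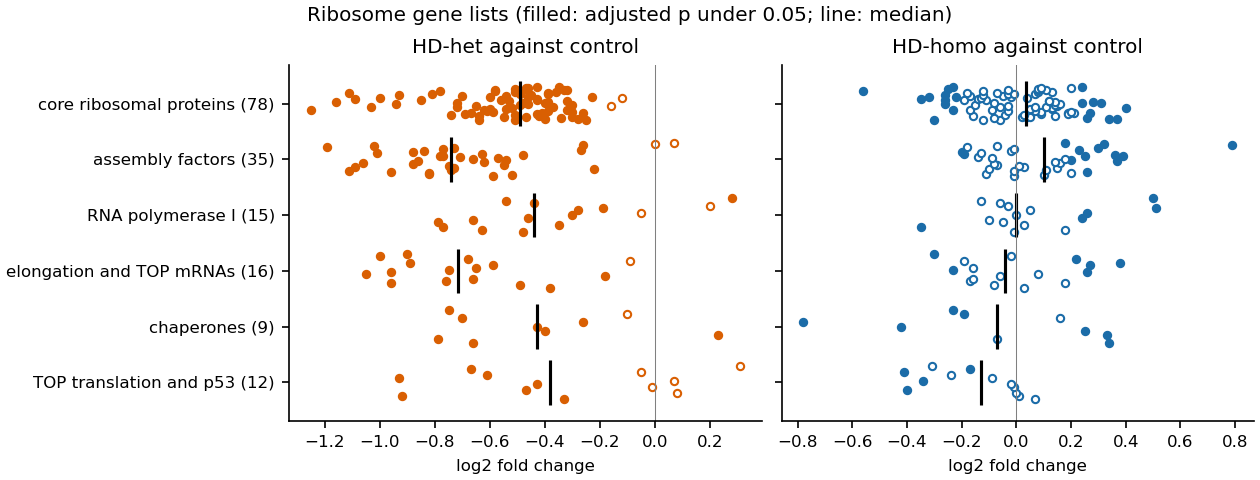
Log2 fold change against control of the core ribosomal protein genes and of the 5 other gene lists in HD-het (left) and HD-homo cells (right), 1 point per gene, filled for an adjusted p under 0.05, with a line at the median. Medians in HD-het cells lie between -0.74 and -0.38, and those in HD-homo cells between -0.13 and 0.10.

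Members rose and fell together between libraries of 1 line as well. Control replicate 3 was the highest control library for 84 of the 88 tested members. HD-het replicate 3 was the highest of its line for 83 and HD-het replicate 2 the lowest for 84, while HD-homo replicate 1 was the highest for 76. The members are therefore not independent readings of a line. The coefficient of variation of the core genes between the 3 libraries of a line had a median of 8.06% in control, 7.99% in HD-het and 5.91% in HD-homo cells. Divided by transcript length, core levels ran in control cells from 23.0 CPM per kilobase for Rpl17 to 2656 for Rps12, with a median of 521.5, and from 18.5 to 1237 with a median of 360.8 in HD-het cells. Rpl17 shares 78.7% and Rps12 90.1% of its words with other genes, so that these per-length levels depend on how common reads were assigned. Among members named for their total level, Rplp0 was at 1278 CPM per kilobase in control, 874.1 in HD-het and 1399 in HD-homo cells, Rpsa in the same order at 927.5, 722.3 and 1106, and Rpl4 at 980.5, 693.1 and 1095. Rps15a and Rpl30 were at 38.4 and 48.6 CPM per kilobase in control cells. The rank order of the core genes by CPM was nearly the same in each line, with Spearman correlations of 0.977 to 0.984 over 78 genes, as a description.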

How the data were processed

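RNA was isolated from the 3 lines, poly(A) RNA was selected and directional libraries were made with the NEBNext Ultra II kit. The authors deposited raw counts per gene symbol, as whole numbers and without normalization, for 9 libraries. The submitters' processing notes name cutadapt, Bowtie 1.1.2, RSEM 1.3.0 and DESeq2 and the builds GRCm38.p5 and mm10, with no role for any of them. If RSEM made the counts, they are rounded estimates in which reads common to several genes were divided. Totals of 29507665 to 41197931 counts put the floor of 3 counts at 0.0728 to 0.102 CPM, which covers counting error only.

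The tests used edgeR 4.0.16 (R 4.3.3), after a filter on low counts (filterByExpr, minimum count 10). Counts were scaled by TMM and fitted with 1 mean per line over all 9 libraries, and each pair of lines was compared by the two-sided quasi-likelihood test, with Benjamini-Hochberg adjustment over 13508 genes and a threshold of 0.05. Standard errors are the log2 fold change over the root of F. The script was tested on simulated data. Positions and transcripts came from GENCODE M21 (GRCm38), using the principal transcript of each gene. Chromosomes of 13036 tested genes came from RefSeq (GRCm38.p6). Of the table's rows, 26 are named by a date and 2 names appear again.

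Members named are those with the 4 largest changes in each direction of each comparison at 10 CPM or more, the highest and lowest by level, the paralogs with their parents, members by role and the extremes of the other lists. The members and lists were chosen with earlier results of these data known. Alternatives were other scalings, filters and thresholds, DESeq2 1.42.0, only the lines compared, a replicate block, leaving out each library, and summing rows that share reads (at least 5% of 50-base words), the last chosen after the data were seen. A few genes enter the counts and medians but are not reported one by one here.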

Additional observations from a re-analysis of the deposited data

How the results depend on the processing

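The decrease in HD-het cells kept its direction and size under every alternative run, with 78 to 86 members lower when a library was left out and 0 higher throughout. The HD-homo comparison with control is the one that moved: leaving out 1 library gave 5 to 16 members higher and 4 to 15 lower, and an adjusted p under 0.01 left 5 and 4. The single member called lower in HD-homo cells against HD-het, Rpl3l, was called in 5 of the 9 fits without a library (1 or 0 members per fit, 0 without HD-het replicate 1 or 3 or HD-homo replicate 2 or 3), and 0 were called by DESeq2, with at least 10 counts in every library, or at an adjusted p under 0.01. Called assembly factors in HD-homo against control ranged from 7 to 17 without a library. Over all genes tested, deviations of same-numbered libraries of different lines had correlations from -0.0053 to 0.145, and those of differently numbered libraries from -0.153 to 0.0645. Over the tested members alone the ranges were wider, from -0.505 to 0.495 and from -0.572 to 0.604. Whether libraries with the same number share more than the number was not tested. Fitting the number as a replicate block gave 16 members higher in HD-homo against control and 11 in place of 6 called TOP mRNAs. Other scalings moved the median of all genes by less than 0.1. For the named members, 2866 alternative values kept their side of the threshold, 70 no longer passed and 15 newly passed, and 0 reversed. Causes of these shifts were not tested, apart from the filter of 10 counts, which removed Rpl3l.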
